A study of Mus musculus with 6 samples.

Results

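The Slc1a genes encode membrane transporters that carry glutamate or neutral amino acids into cells, and 6 of them were compared between the hippocampus of wild-type (WT) mice and of mice with an altered Slc1a2 gene (TG). The 6 genes are Slc1a1, Slc1a2, Slc1a3, Slc1a4, Slc1a5 and Slc1a6, and they were taken by symbol from a table of 54532 genes. All 6 passed the filter on low values, which 20952 genes of the table passed. The TG mice carry a change of glycine 82 to arginine and of leucine 85 to proline in exon 3 of Slc1a2, introduced by CRISPR/Cas9 knock-in on a C57BL/6N background. The controls are wild-type littermates. The line was set up by mating founders to C57BL/6 mice, which gave heterozygous offspring, and both the TG mice and the controls of the study included males and females. The labels number the 6 libraries as WT mice 1 to 3 and TG mice 1 to 3 (WT1 to WT3 and TG1 to TG3). Each library is taken here as hippocampal RNA of 1 mouse, which the labels do not state outright. The 3 values given for a group stand in the order of the replicates 1, 2 and 3. Which of these mice were sequenced, and so the sex of each library, is not given in the sources used here, nor are their age and a statement of their zygosity. The design asks whether RNA levels differ in the hippocampus of mice that carry these changes in Slc1a2, and here that question is put to Slc1a2 and to its relatives.

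Glutamate released at excitatory synapses is not broken down outside cells, so its action ends when transporters move it back into astrocytes and neurons. The carriers use the sodium, proton and potassium gradients across the membrane, and in the hippocampus the astrocytic carrier GLT-1, the product of Slc1a2, is known to do most of this uptake. Slc1a3 (GLAST) is a second astrocytic glutamate carrier, Slc1a1 (EAAC1) is mainly neuronal, and Slc1a6 (EAAT4) is best known from cerebellar Purkinje cells. Slc1a4 (ASCT1) and Slc1a5 (ASCT2) belong to the same family by sequence but exchange neutral amino acids such as serine, alanine and glutamine.

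The site altered in the TG mice is a stretch that the family shares, and the 6 reference sequences around it are shown for that reason. Each run of 48 bases (16 codons) is printed 5′ to 3′ on the coding strand, and the capitals mark the codons aligned with codons 82 and 85 of Slc1a2. The sequences are the reference ones of GENCODE M21 transcripts on GRCm38, not reads of these mice. The Slc1a2 stretch lies in exon 3 on the plus strand at chr2:102737845-102737892, where codon 82 is GGG and codon 85 is CTC. The other stretches are those of Slc1a3 in exon 3 (minus strand, chr15:8688325-8688372, codons 85 and 88), Slc1a1 in exon 2 (plus strand, chr19:28879069-28879116, codons 56 and 59), Slc1a6 in exon 3 (plus strand, chr10:78789012-78789059, codons 90 and 93), Slc1a4 in exon 1 (minus strand, chr11:20332209-20332256, codons 79 and 82) and Slc1a5 in exon 1 (plus strand, chr7:16782162-16782209, codons 94 and 97).
Slc1a2: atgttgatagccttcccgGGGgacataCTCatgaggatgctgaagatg
Slc1a3: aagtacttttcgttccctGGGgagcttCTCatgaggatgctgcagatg
Slc1a1: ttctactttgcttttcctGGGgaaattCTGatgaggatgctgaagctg
Slc1a6: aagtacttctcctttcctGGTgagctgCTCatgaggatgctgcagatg
Slc1a4: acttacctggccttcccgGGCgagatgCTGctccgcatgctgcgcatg
Slc1a5: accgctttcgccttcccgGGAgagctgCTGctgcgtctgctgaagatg

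All 6 genes encode glycine and leucine at these aligned codons. Slc1a2 and Slc1a3 use the same pair of codons, GGG and CTC, and the other genes differ from that pair in at least 1 of them. Of the 16 residues of the stretch, 11 were identical to Slc1a2 in Slc1a1, and 9 in each of Slc1a3, Slc1a4, Slc1a5 and Slc1a6. Over the whole aligned protein, identity to Slc1a2 was 51.7% for Slc1a1, 51.0% for Slc1a3, 45.7% for Slc1a6, 40.3% for Slc1a4 and 39.5% for Slc1a5. The changed codons therefore sit where the other carriers keep the same pair of residues. The deposited values are totals per gene, so transcripts with and without the changed codons are not separated in what follows, and the Slc1a2 level does not check the genotype labels.

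The values are FPKM, the reads of a gene scaled to its length and to the library, so levels of different genes can be set side by side. The libraries held between 16081281 and 18751057 reads on genes. At that depth 3 reads on a gene of 1 kb correspond to an FPKM of 0.160 to 0.190. TG1 and TG2 stood apart in RNA of the choroid plexus, the epithelium next to the hippocampus that makes cerebrospinal fluid. On the log2 scale, the median of 12 choroid plexus genes exceeded its WT mean by 3.27 in TG1 and by 4.76 in TG2, but by 0.07 in TG3. Their summed FPKM was 58.1 to 82.5 in WT mice and 66.6 to 3845 in TG mice, mostly from Ttr, and none of the 12 genes was at 0 in any library. The differences of the 6 Slc1a genes are therefore also given below with TG3 as the only TG library.

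Slc1a2 was by far the most abundant of the 6 genes, followed by Slc1a3, and the order was the same in both groups except between Slc1a4 and Slc1a1. Averaged over the 6 libraries, Slc1a2 was 3.09 times as high in FPKM as Slc1a3, and Slc1a3 was 3.81 times as high as Slc1a4. Slc1a4 and Slc1a1 were at nearly the same level, with a ratio of means of 1.01, overlapping ranges and Slc1a4 the higher in 4 of 6 libraries. Slc1a1 was 3.54 times as high as Slc1a6, and Slc1a6 was 6.41 times as high as Slc1a5. Every pair of neighbours other than Slc1a4 and Slc1a1 kept its order in 6 of 6 libraries without any overlap of the ranges. By mean FPKM, Slc1a2 was number 132 of the 20952 genes tested, so that 99.4% of them were lower, whereas 32.7% of them were lower than Slc1a5.

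**Figure D1:**
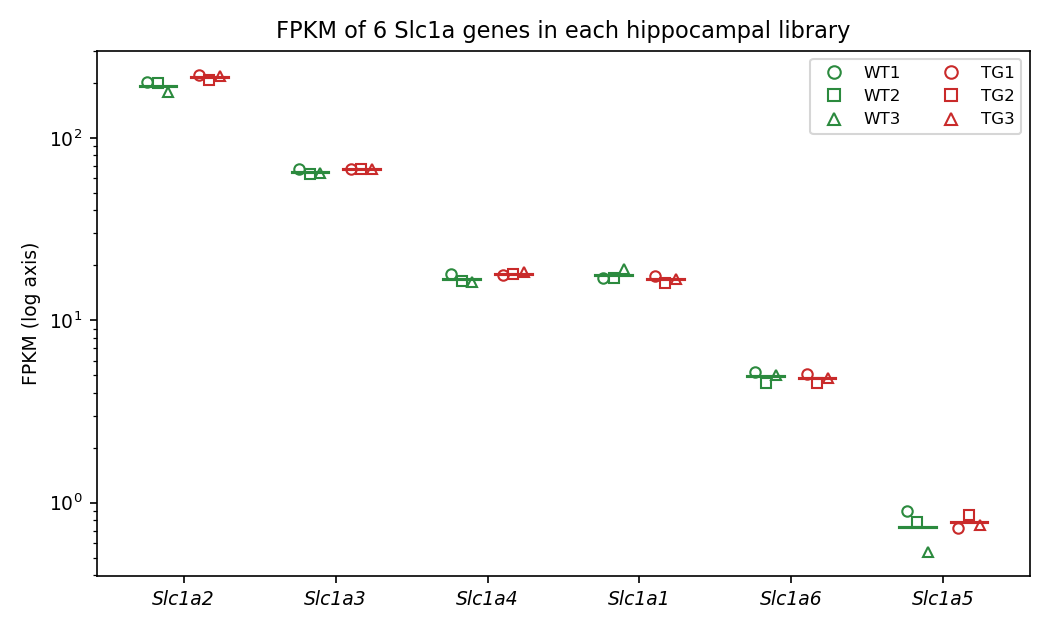
FPKM of the 6 Slc1a genes in each library on a log axis, with 1 symbol per library (WT in green, TG in red) and a line at each group mean. The genes span from 0.538 for Slc1a5 in WT3 to 222 for Slc1a2 in TG1, and only for Slc1a2 do all TG symbols lie above all WT symbols.

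The genes were compared between TG and WT with limma on log2(FPKM + 0.1), and p-values were adjusted over all genes tested by the Benjamini-Hochberg method. None of the 6 had an adjusted p under 0.05 (0 of 6, beside 0.00955% of all genes tested, which is 2 genes). These 2 were Snord7 and Mir7655, named after their values were seen. None of the 6 had an unadjusted p under 0.05 either (0 of 6, beside 5.91% of all genes tested, with 656 genes higher and 582 lower in TG mice). The TG libraries were all above the WT libraries for 1 of the 6, Slc1a2, beside 6.35% of all genes tested. They were all below for 0 of the 6, beside 5.71% of all genes tested. The log2 fold change was above 0 for 4 members and below 0 for 2, with a median of 0.07, while the median of all genes tested was -0.002 and 49.6% of them were above 0. All 6 intervals of the difference included 0. With TG3 as the only TG library, the log2 fold changes kept their signs, at 0.17 for Slc1a2, 0.05 for Slc1a3, 0.12 for Slc1a4, -0.07 for Slc1a1, -0.02 for Slc1a6 and 0.05 for Slc1a5, where the single library is assumed to vary like the others.

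**Figure D2:**
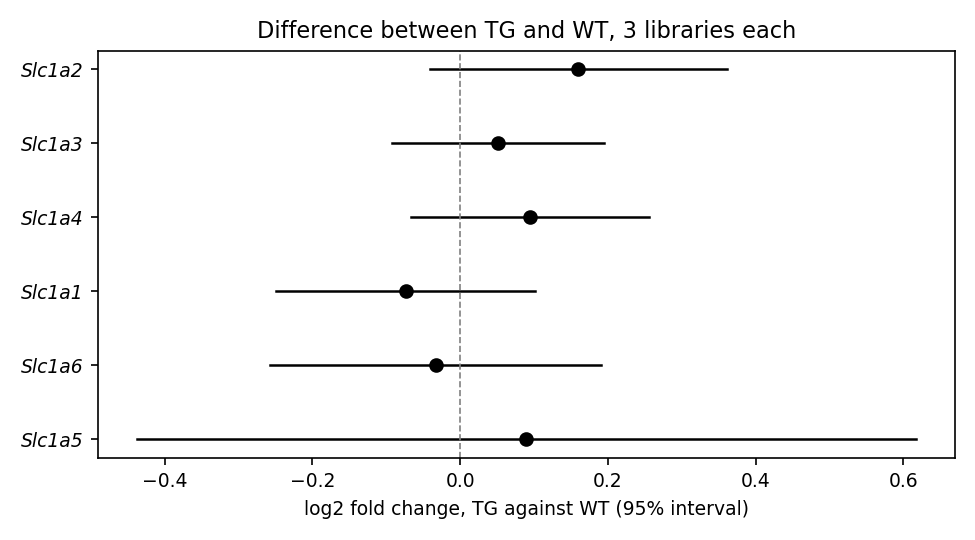
Log2 fold change of each Slc1a gene, TG against WT, with its 95% interval from limma, 3 libraries in each group. Slc1a2 has the largest value, 0.16, with an interval from -0.04 to 0.36, and the interval of Slc1a5 is the widest, from -0.44 to 0.62.

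Slc1a2 (ENSMUSG00000005089, chr2:102658659-102790784, plus strand) encodes GLT-1, the carrier that is altered in the TG mice. Its FPKM was 202, 199.5 and 177 in the WT mice, against 222, 207 and 217 in the TG mice. The groups did not overlap, but the gap between the lowest TG and the highest WT library was only 4.63 FPKM, and WT3 lay well below the other WT libraries. The group means were 193 ± 13.8 in WT and 215 ± 7.61 (SD, n = 3 each) in TG mice. The log2 fold change was 0.16 (SE 0.0856, adjusted p = 0.789, limma), which is a fold of 1.12 with a 95% interval of 0.972 to 1.28. Counting error was small beside this, since each value rested on 42330 to 51536 reads (coefficient of variation of counting 0.462%, against 7.13% among the WT libraries).

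WT3 decided much of the size of the Slc1a2 difference, because without it the log2 fold change was 0.10 (adjusted p = 0.984, limma). With TG3 as the only TG library, which leaves out TG1 and TG2 but keeps WT3, the log2 fold change was 0.17. With the choroid plexus level as a covariate, the Slc1a2 log2 fold change was 0.18 (SE 0.145, limma). Beyond these fits, the part of choroid plexus RNA in the Slc1a2 difference was not tested. Gene length moved with the same libraries. Slc1a2 has 13133 bases of exons, and 1940 protein-coding genes of 8 to 16 kb whose mean FPKM was 1 or more had medians against the WT mean, on the log2 scale, of -0.09 in WT3 and of 0.12, 0.03 and 0.06 in the TG mice. In the 1254 genes of 1 to 2 kb these medians were 0.15 in WT3 and -0.15, -0.08 and -0.07 in the TG mice, so long and short genes leaned in opposite directions. After each library was corrected for its trend on gene length, an alternative chosen after seeing the data, the Slc1a2 log2 fold change was 0.07 (adjusted p = 0.827, limma). The TG libraries then lay 0.08, 0.05 and 0.09 above the WT mean and the WT libraries at 0.02, -0.04 and 0.02, still without overlap.

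Markers of other glia also varied between the libraries beside Slc1a2. All 10 oligodendrocyte markers had a log2 fold change below 0, with a median of -0.28, of which 1 had an unadjusted p under 0.05, and their summed FPKM was 671 to 840.3 in WT and 522 to 773 in TG libraries. Their median against the WT mean was -0.65 in TG1, the library in which Slc1a2 was highest, but -0.15 in TG2 and -0.06 in TG3, and -0.20 in WT3, the library in which Slc1a2 was lowest. Of 10 microglia markers 8 were above 0 and 2 below, of which 2 had an unadjusted p under 0.05, and the summed FPKM was 193 to 219 in WT and 177 to 245 in TG libraries. The microglia median was -0.23 in TG1 and 0.25 and 0.26 in the other TG libraries. Among all genes tested 5.91% had an unadjusted p under 0.05, and none of these oligodendrocyte and microglia markers had an adjusted p under 0.05. None of these markers was at 0 in any library. Their part in the Slc1a2 difference was not tested, and without TG1 the Slc1a2 log2 fold change was 0.14.

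Slc1a3 (ENSMUSG00000005360, chr15:8634124-8710764, minus strand) encodes GLAST, the other astrocytic glutamate carrier. Its FPKM was 67.4, 63.3 and 64.3 in the WT mice, against 67.2, 67.4 and 67.3 in the TG mice. The TG libraries fell within the upper part of the WT range, and the highest value of all was in WT1. The group means were 65.0 ± 2.16 in WT and 67.3 ± 0.0790 (SD, n = 3 each) in TG mice, and the log2 fold change was 0.05 (SE 0.0612, 95% interval -0.09 to 0.19, adjusted p = 0.841, limma). The 3 TG values were closer to each other than counting alone would give, with a coefficient of variation of 0.117% beside 1.00% from counting at 8725 to 10640 reads, so their small SD is no measure of precision. With the trend on gene length removed, the difference of Slc1a3, which has 8537 bases of exons, turned to -0.006.

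The RNA ratio of the astrocytic carriers does not depend on how libraries are scaled. The FPKM of Slc1a2 over that of Slc1a3 was 3.00, 3.15 and 2.76 in the WT mice, against 3.30, 3.07 and 3.23 in the TG mice. The groups overlapped, with WT2 above TG2. The log2 ratio of Slc1a3 to Slc1a2 was lower in TG than in WT mice by a difference of -0.11 (-1.57 ± 0.0977 in WT and -1.68 ± 0.0528 in TG mice, SD, n = 3 each, P = 0.2, exact two-sided permutation test). For 3 against 3 libraries this test cannot go below 0.1. After adjustment over the 3 single values tested in this way, P was 0.3 in the permutation test. Without WT3 the difference was -0.06. The ratio was not corrected for gene length, and Slc1a2 has more bases of exons than Slc1a3 (13133 and 8537).

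Slc1a2 was also set against other genes of the cells that express it. The 18 astrocyte markers were all tested, with 9 above and 9 below 0 and a median log2 fold change of -0.02. Of these markers 0 had an unadjusted p under 0.05, beside 5.91% of all genes tested. Their most abundant gene, the glycolytic enzyme gene Aldoc, lay at FPKM values of 249, 258 and 315 in the WT mice, against 251, 255 and 258 in the TG mice. The markers were split in WT3. Aqp4, Slc4a4, Sox9 and Kcnj10 had their lowest value of the 6 libraries there, as Slc1a2 did. Aldoc had its highest value there, as did Aldh1l1, S100b, Gjb6, Mlc1, Ntsr2, Acsbg1, Cbs, Gpr37l1 and F3. The genes beside Aldoc were named after their values were seen. Relative to the median of the 18 markers, Slc1a2 was 0.09, 0.10 and -0.21 from the WT mean in the WT mice, against 0.25, 0.13 and 0.17 in the TG mice on the log2 scale. The groups did not overlap and differed by 0.19 (P = 0.1, the smallest value possible, and 0.3 after adjustment, exact two-sided permutation test). Without WT3 this difference was 0.09. It was not corrected for gene length, which moved with the same libraries as described above. In bulk tissue, fewer cells of a type and less RNA per cell cannot be told apart.

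**Figure D3:**
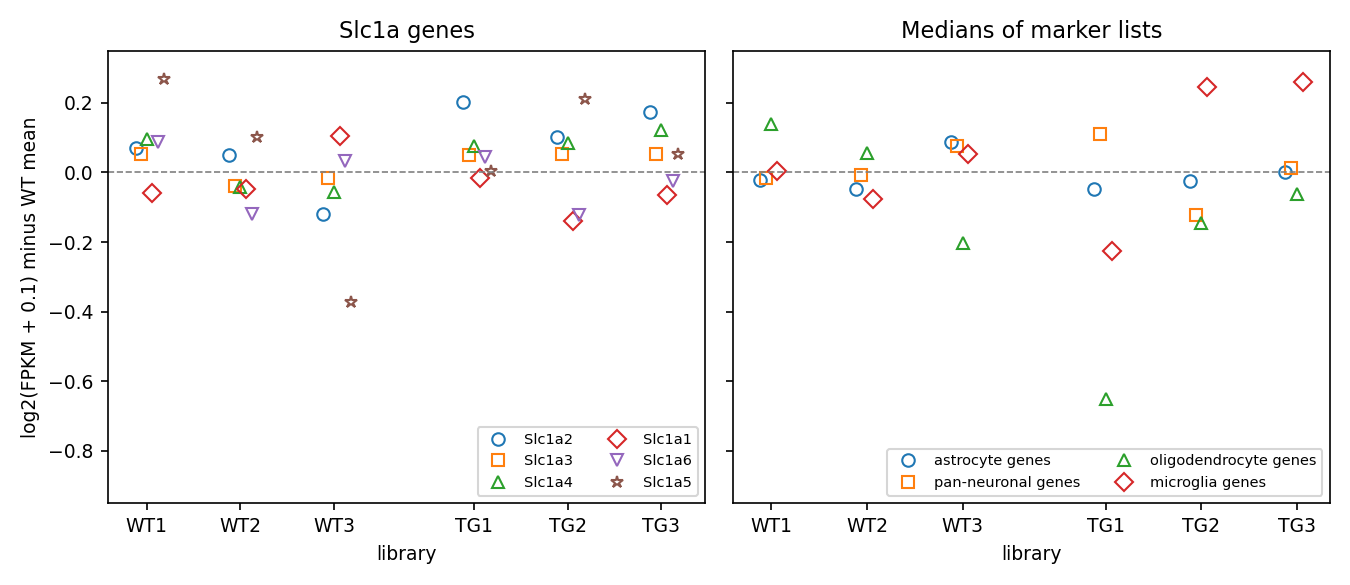
Log2(FPKM + 0.1) of each Slc1a gene minus its mean over the WT libraries (left) and the median of the same quantity over 4 marker lists (right), by library. In WT3 Slc1a2 sits at -0.12 while the astrocyte median sits at 0.09, and in TG1 to TG3 Slc1a2 sits at 0.20, 0.10 and 0.17 while the astrocyte median stays between -0.05 and 0.001.

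Slc1a1 (ENSMUSG00000024935, chr19:28835049-28913960, plus strand) encodes EAAC1, which takes up glutamate and cysteine into neurons. Its FPKM was 16.9, 17.1 and 19.0 in the WT mice, against 17.5, 16.003 and 16.9 in the TG mice. The groups overlapped, with WT3 highest, which is the library in which Slc1a2 was lowest. The means were 17.7 ± 1.15 in WT and 16.8 ± 0.729 (SD, n = 3 each) in TG mice, with a log2 fold change of -0.07 (SE 0.0747, 95% interval -0.25 to 0.10, adjusted p = 0.811, limma). Without WT3 the log2 fold change was -0.02. Relative to the median of 10 pan-neuronal markers, Slc1a1 differed by -0.06 between groups that overlapped (P = 0.3 before and after adjustment, exact two-sided permutation test).

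Reads of Slc1a1 are the least certain of the 6 to assign. The protein-coding gene 4430402I18Rik overlaps it on the opposite strand, and 31.0% of the 50-base stretches of Slc1a1 transcripts (2539 of 8200) also occur in its transcripts on 1 strand or the other. Whether the counting used strand is not given in the sources used here. The overlapping gene had a mean FPKM of 0.911 and at most 121 reads in a library, beside 1701 to 2194 reads of Slc1a1. Among the other members the shared stretches were 1.31% in Slc1a2, 0.704% in Slc1a3 and 0% in Slc1a4, Slc1a5 and Slc1a6.

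Slc1a2 relative to Slc1a1 sets the RNA of the main astrocytic carrier against that of the main neuronal carrier. It is no measure of the proteins, as the paper reports from Western blots that GLT-1 was almost lost from the TG hippocampus. This FPKM ratio was 11.9, 11.7 and 9.34 in the WT mice, against 12.7, 12.9 and 12.9 in the TG mice. The groups did not overlap, and WT3 again lay away from the other WT libraries. Slc1a1 has 6170 bases of exons, fewer than Slc1a2, and WT3 is the library in which long genes were low and short genes high. This ratio was looked at after the values of both genes were known and was not tested.

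Slc1a6 (ENSMUSG00000005357, chr10:78780496-78814765, plus strand) encodes EAAT4, a glutamate carrier with a large chloride conductance. Its FPKM was 5.23, 4.52 and 5.04 in the WT mice, against 5.08, 4.51 and 4.84 in the TG mice, from 157 to 208 reads. The groups overlapped almost completely. The means were 4.93 ± 0.368 in WT and 4.81 ± 0.286 (SD, n = 3 each) in TG mice, with a log2 fold change of -0.03 (SE 0.0953, 95% interval -0.26 to 0.19, adjusted p = 0.939, limma), and the sign changed when WT1 (0.0098) or TG2 (0.011) was left out. Markers of cerebellar tissue were low beside it but highest in WT1 for the following genes. Pcp2, a Purkinje cell gene, was at 0.385 FPKM in WT1 and at 0.029 to 0.153 in the other libraries. Gabra6, a gene of cerebellar granule cells, was at 0.261 in WT1 and at 0 to 0.022 in the others. WT1 is also the library in which Slc1a6 was highest, but only slightly. The 95% interval of that value for counting error alone, 4.54 to 5.99 FPKM, covers the values of TG1 and WT3. A part of cerebellar tissue in the Slc1a6 level was not tested. Other genes of the same list that hippocampal neurons also express were higher, such as Calb1 with a mean of 26.6 FPKM.

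Slc1a4 (ENSMUSG00000020142, chr11:20302180-20332713, minus strand) encodes ASCT1, which exchanges serine, alanine and other small neutral amino acids. Its FPKM was 17.95, 16.3 and 16.2 in the WT mice, against 17.7, 17.8 and 18.3 in the TG mice. The TG libraries were all above WT2 and WT3, but WT1 lay among them. The means were 16.8 ± 0.990 in WT and 17.9 ± 0.311 (SD, n = 3 each) in TG mice, with a log2 fold change of 0.09 (SE 0.0685, 95% interval -0.07 to 0.26, adjusted p = 0.789, limma). Each value rested on 1035 to 1303 reads. Without WT1 the log2 fold change was 0.14 (adjusted p = 0.682, limma).

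Slc1a5 (ENSMUSG00000001918, chr7:16781340-16798274, plus strand) encodes ASCT2, which is best known for glutamine exchange in dividing cells. Its FPKM was 0.894, 0.786 and 0.538 in the WT mice, against 0.727, 0.856 and 0.756 in the TG mice, from only 42 to 69 reads. All TG libraries fell inside the WT range. Counting alone gives a coefficient of variation of 13.4% at this depth, and the exact Poisson interval of the lowest value, WT3, ran from 0.387 to 0.727 FPKM, which covers counting error only. The means were 0.739 ± 0.183 in WT and 0.780 ± 0.0674 (SD, n = 3 each) in TG mice, with a log2 fold change of 0.09 (SE 0.225, 95% interval -0.44 to 0.62, adjusted p = 0.931, limma). Without WT3 it was -0.10. The 95% interval spans differences in both directions, and its width comes from the spread between libraries as well as from counting.

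The exchangers were thus unequal in level, as Slc1a4 was 20.1 to 30.1 times as high as Slc1a5 in WT libraries and 20.8 to 24.4 times as high in TG libraries. Slc1a7, a glutamate carrier known from the retina and the only other gene with an Slc1a symbol in the table, had 0 to 3 reads in a library, at or below 0.0477 FPKM, and did not pass the filter on low values. Its protein also carries glycine and leucine at the aligned positions.

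Taking the 6 genes as a pool of transcripts, their summed FPKM was 311, 302 and 282 in the WT mice, against 330.2, 314 and 325 in the TG mice. The TG libraries were all above the WT libraries, but TG2 (314) lay only slightly above WT1 (311), and the sum was not tested. Slc1a2 made up most of the sum, so this separation largely repeats the one given for that gene. The Slc1a2 share was 62.8% to 66.2% in WT and 66.0% to 67.2% in TG libraries, which overlapped. The share of Slc1a3 was 20.99% to 22.8% in WT and 20.4% to 21.5% in TG libraries, and that of Slc1a5 stayed at or under 0.288% in all 6. In every library the astrocytic pair therefore made up most of the Slc1a transcripts when counted per length.

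By the distance between profiles over the 6 libraries (root mean square of log2(FPKM + 0.1) centred on each gene's mean, over 13324 other genes whose mean FPKM was 1 or more), Hrk at 0.0192 and Agpat3 at 0.0194 were among the genes most like Slc1a2. Hrk encodes a pro-apoptotic BH3-only protein and Agpat3 an enzyme of phospholipid synthesis. The FPKM of Agpat3 was 37.3, 37.4 and 33.8 in the WT mice, against 41.1, 37.9 and 40.04 in the TG mice, with the same low WT3 library as Slc1a2. Among the relatives Slc1a4 was nearest at 0.0656 (number 655), followed by Slc1a3 at 0.0840, Slc1a6 at 0.136 and Slc1a1 at 0.163, while the median of all genes was 0.173. These distances are a description of 6 libraries.

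The carriers work with other genes of glutamate and amino acid handling, and 59 such genes in 5 lists were tested in the same fit. None had an adjusted p under 0.05, and 3 (5.08%, beside 5.91% of all genes tested) had an unadjusted p under 0.05. The TG libraries lay above the WT libraries for 5 of the 59 genes and below for 2, beside 6.35% and 5.71% of all genes tested. The 5 higher ones were Slc38a2, Sgk1, Nedd4, Yy1 and Slc7a5 and the 2 lower ones Psat1 and Psph, named after their values were seen. The median log2 fold change of the 59 genes was 0.04, with 39 above and 20 below 0.

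Of the 14 genes of the glutamate and glutamine cycle, 7 had a log2 fold change above 0 and 7 below. The most abundant was Glul, which makes glutamine from the glutamate that astrocytes take up, at 440, 452 and 516 FPKM in the WT mice, against 464, 453 and 482 in the TG mice. Slc38a2, a sodium-coupled carrier of neutral amino acids including glutamine, was at 14.7, 13.0 and 12.8 FPKM in the WT mice, against 16.1, 16.4 and 16.8 in the TG mice. These groups did not overlap, but the difference did not pass the adjusted test (log2 fold change 0.28, unadjusted p = 0.00776, adjusted p = 0.786, limma). Of 6 genes of glutamate release and vesicular loading, 5 were above 0 and 1 below, led in level by Slc17a7, the vesicular glutamate transporter VGLUT1, with a mean of 283 FPKM.

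Of 11 genes that set up or use the ion gradients of uptake, 10 were above 0 and 1 below, with a median of 0.06 and none with an unadjusted p under 0.05. The most abundant was Atp1b1, a subunit of the sodium pump, with a mean of 538 FPKM. Of 14 measured regulators and binding partners, 10 were above 0 and 4 below. Among them Sgk1, a kinase that raises the surface level of several carriers, was at 20.6, 28.3 and 29.1 FPKM in the WT mice, against 30.1, 34.2 and 32.8 in the TG mice (log2 fold change 0.33, unadjusted p = 0.0453, adjusted p = 0.786, limma). Arl6ip5, which binds EAAC1, was the most abundant of this list with a mean of 90.4 FPKM.

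Of the 14 tested genes of neutral amino acid exchange and serine synthesis, 7 were above 0 and 7 below. Psat1, an enzyme of the serine synthesis pathway, was at 29.2, 28.8 and 31.0 FPKM in the WT mice, against 24.9, 26.7 and 27.7 in the TG mice. The groups did not overlap, with a log2 fold change of -0.17 (unadjusted p = 0.0465, adjusted p = 0.786, limma). Slc3a2, the heavy chain shared by several amino acid exchangers, was the most abundant with a mean of 35.5 FPKM.

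**Figure D4:**
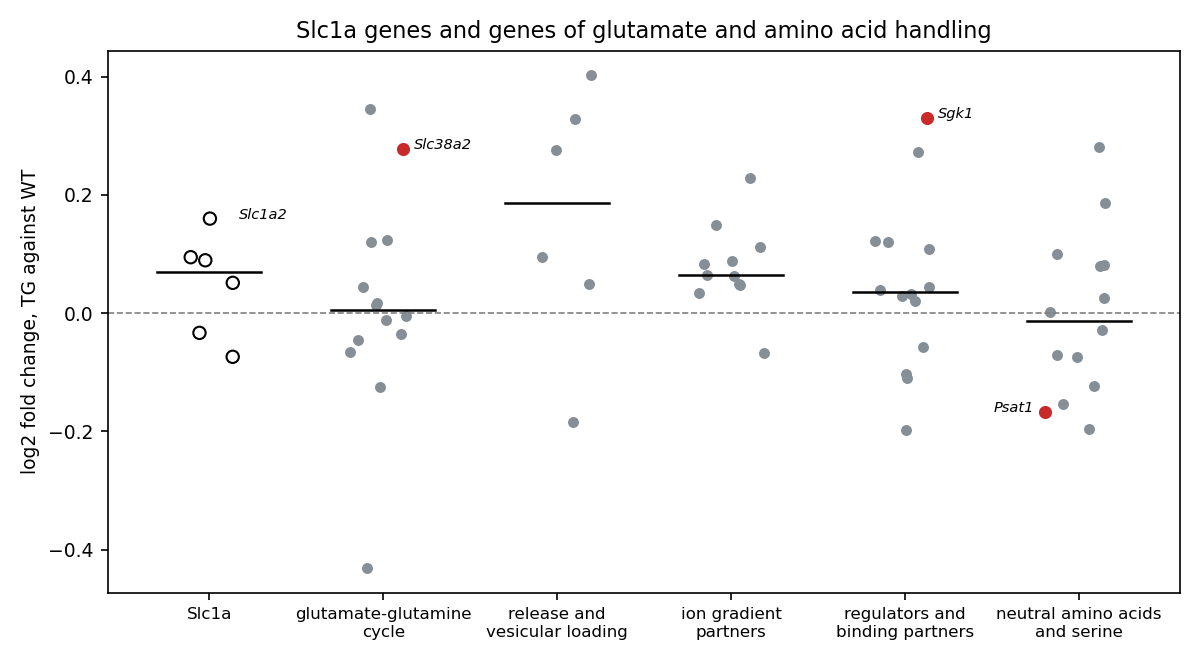
Log2 fold change, TG against WT, of the 6 Slc1a genes (open circles) and of the tested genes of 5 lists of glutamate and amino acid handling, with a line at the median of each. Red points are the 3 genes with an unadjusted p under 0.05, and none of the points passed the adjusted test.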

How the data were processed

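Hippocampal RNA-seq libraries of 3 WT and 3 TG mice were compared. The authors counted reads per gene with HTSeq 0.6.0 and deposited FPKM in a column for each library. The aligner is not given in the sources used here. The submitters' processing notes name the builds GRCm38 and mm10, and all 6 Slc1a genes had the same start and end in GENCODE M21 (GRCm38). The paper's methods name Trizol and a NEBNext kit, whereas the labels name RNeasy and SMARTer kits. FPKM times gene length gave whole reads for 100% of the values (tolerance 0.05 reads), which gave the depth of each library. Each library is taken as 1 mouse and as 1 replicate.

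Genes whose mean FPKM reached 0.1 entered limma (3.58.1, under R 4.3.3), run on log2(FPKM + 0.1) by lmFit and eBayes with trend and with neither covariate nor block. The p-values were adjusted by Benjamini-Hochberg and judged at 0.05. Fold changes on this scale understate those of low genes. The comparison was also tested on simulated data. Single values were compared by exact two-sided permutation tests. Python 3.11.15 was used for the rest. Members, lists, tests and alternatives were chosen with earlier results of these data known. Genes named in the text are the 6 Slc1a genes, Slc1a7, the most abundant gene of each pathway list and those with an unadjusted p under 0.05, the most abundant gene of a marker list set beside a member, and the 3 genes nearest to Slc1a2, of which 1 is not reported here. Others are marked as chosen after their values were seen, or stand for cerebellar markers. The correction for gene length used a loess trend (span 0.3) of each library's deviations.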

Additional observations from a re-analysis of the deposited data

How the results depend on the processing

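In the alternatives run, Slc1a1 kept a log2 fold change below 0 (-0.11 to -0.02 over 20 alternatives), and Slc1a2 (0.07 to 0.20) and Slc1a4 (0.07 to 0.14) kept one above 0. None of the 6 genes reached an adjusted or unadjusted p under 0.05 in any of them, and the smallest adjusted p was 0.636, for Slc1a2 without WT2. Signs turned as follows, and the cause was not tested. With the trend on gene length removed, Slc1a3 was at -0.0056 and Slc1a6 at 0.018. With the choroid plexus level as a covariate, Slc1a5 was at -0.015 and Slc1a6 at 0.0060. With 1 library left out, Slc1a5 ranged from -0.10 (without WT3) to 0.22, and Slc1a6 from -0.094 (without WT2) to 0.011 (without TG2), with 0.0098 without WT1. Slc1a5 could not be tested with a minimum mean FPKM of 1, which left it out. The 3 single values kept their direction in all alternatives.

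The number of genes called among all genes was 2, and it was 0 with a pseudocount of 0.01 or 1, without the filter, with scaling by the protein-coding sum, with either covariate (choroid plexus or astrocyte), with voom on the recovered reads, with TG3 alone and with the trend on gene length removed. It was 1 with a minimum mean FPKM of 1, 9 without the trend of the variance, and 0 to 6 with 1 library left out, where the 6 came without TG1. Unadjusted p under 0.05 was reached by 693 (choroid plexus covariate) to 1543 genes (no filter) in these alternatives, beside 1238. Scaling by the protein-coding sum moved the median of all genes to 0.02.

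The replicate block, with WT and TG libraries paired by their number, gave 0 called genes and 1244 at an unadjusted p under 0.05, and the Slc1a2 log2 fold change stayed at 0.16 (adjusted p = 0.787, limma). Same-numbered libraries hardly deviated together (correlations of 0.0109, 0.0516 and 0.0334). WT2 and WT3 correlated best with their own number, but WT1 did so with TG3 (0.0192). Correlations this small, of deviations within groups of 3 libraries, cannot settle whether the numbers pair the mice.

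At 42 to 69 reads for Slc1a5 and 157 to 208 for Slc1a6, counting error (coefficients of variation of 13.4% and 7.38%) is not small beside the spread of the WT libraries (24.7% and 7.47%).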
